A study of Mus musculus with 8 samples.

Results

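The 10 genes described here encode the subunits of NF-κB (Nfkb1, Nfkb2, Rel, Rela and Relb) and inhibitors of the pathway, most of them inducible (Nfkbia, Nfkbib, Nfkbie, Nfkbiz and Tnfaip3). They were taken by gene symbol from the 29955 genes listed for each library. The set was chosen by symbol and role at a time when the genotype differences of these libraries were known, so the measured values behind the choice are the genotype differences in LK and LSK cells. All 10 were found and passed the filter on low values in every comparison. RNA-seq had been run on 2 cell populations sorted from mouse bone marrow, the Lin- Sca1+ Kit+ (LSK) cells that hold the HSPCs and the Lin- Kit+ (LK) cells, defined in the study as lacking Sca1, that hold the myeloid progenitors. Each population came from wild-type (WT) mice and from Ripk3 knockout (Ripk3-/-) mice, which gave 4 groups of 2 libraries. All mice carried the strain background spelled CD57BL6/J in the labels. The labels state that the mice were untreated, whereas the study describes cells taken a month after the last of repeated low X-ray doses, given to both genotypes, and the libraries themselves cannot settle which holds. Age is not given in the sources used here, and nothing says that the 2 libraries of a group came from separate mice, so p-values measure only the spread between these libraries, which may be technical.

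NF-κB is a family of dimeric transcription factors. RelA, c-Rel and RelB carry a transactivation domain, whereas p50 and p52 are cut from the precursors encoded by Nfkb1 and Nfkb2. In resting cells the dimers are held in the cytoplasm by IκB proteins, of which IκBα (Nfkbia), IκBβ (Nfkbib) and IκBε (Nfkbie) are the classical members. Signals from TNF, IL-1 and Toll-like receptors lead the IKK complex to phosphorylate IκB, which is then degraded and frees the dimer. Nfkbia and Tnfaip3, which encodes the ubiquitin-editing enzyme A20, are themselves NF-κB targets and close negative feedback loops. Nfkbiz encodes the nuclear IκBζ, which binds p50 in the nucleus and can also activate secondary response genes. The RelB and p52 pair serves the noncanonical branch.

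Windows of 250 bases before a transcription start, from RefSeq on GRCm38.p6, were found for 7 of the 10 genes (10 windows, since some genes have more than 1 start). The κB consensus (GGGRNNYYCC, with R for A or G, Y for C or T and N for any base) was searched on both strands. It matched 7 of the 10 windows, against 7.25% of all 32851 windows. The matching windows belong to 5 of the 7 genes (Tnfaip3, Rel, Nfkbia, Nfkbie and Nfkb2). Several of them are windows of Nfkb2, some overlapping, which hold 250, 167 and 234 annotated exon bases. A match is a description of letters, and binding was not measured. The window of Nfkbia, the member with the largest genotype difference, lies at chr12:55492648-55492897 on the minus strand and holds a match 29 to 20 bases before the start. The windows of Nfkbie (chr17:45555450-45555699, plus strand, a match 106 to 97 bases before the start) and Rel (chr11:23770970-23771219, minus strand, overlapping matches 92 to 82 bases before the start) are shown beside it because their genes have a match but gave no call between the genotypes. Capitals mark the matches.
Nfkbia: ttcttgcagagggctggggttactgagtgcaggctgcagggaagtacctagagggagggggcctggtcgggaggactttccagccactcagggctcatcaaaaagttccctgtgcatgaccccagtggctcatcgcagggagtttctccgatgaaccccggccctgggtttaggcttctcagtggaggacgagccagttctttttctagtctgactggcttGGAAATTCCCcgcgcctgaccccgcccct
Nfkbie: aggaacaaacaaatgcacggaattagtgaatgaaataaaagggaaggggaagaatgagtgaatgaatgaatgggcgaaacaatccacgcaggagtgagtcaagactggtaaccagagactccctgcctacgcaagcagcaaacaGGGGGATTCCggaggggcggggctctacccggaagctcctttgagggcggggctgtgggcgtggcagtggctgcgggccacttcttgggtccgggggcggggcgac
Rel: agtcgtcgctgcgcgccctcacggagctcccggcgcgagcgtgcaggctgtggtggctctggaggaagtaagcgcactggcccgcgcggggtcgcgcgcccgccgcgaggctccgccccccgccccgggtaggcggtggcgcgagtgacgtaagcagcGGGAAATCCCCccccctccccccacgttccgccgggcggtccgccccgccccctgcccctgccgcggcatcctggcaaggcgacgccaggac

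The deposited values were reads per gene scaled to the library with no division by length. They are called signal here, and their reads could be recovered exactly. Libraries held between 9782166 and 16280811 reads, and replicates of every group differed by more than counting error. Ripk3, the deleted gene, had a signal of 162 and 168 in WT LSK libraries, 3.38 and 1.08 in Ripk3-/- LSK libraries, 144 and 150 in WT LK libraries, and 16.2 and 10.6 in Ripk3-/- LK libraries, in the direction of the labels, with more reads left in Ripk3-/- LK cells. With all 8 libraries scaled together, the sort marker Sca1 (Ly6a) had a mean of 146 CPM in WT LSK and 187 in Ripk3-/- LSK cells. In LK cells its mean was 1.44 CPM in WT and 2.41 in Ripk3-/- cells. The 10 LSK markers summed to 2204 to 2227 CPM in WT LSK and 2974 to 3347 CPM in Ripk3-/- LSK libraries. In LK libraries they summed to 1041 to 1094 CPM in WT and 1147 to 1165 CPM in Ripk3-/- cells. The 11 LK markers summed to 7277 to 8225 CPM in WT LSK and 5456 to 6956 CPM in Ripk3-/- LSK libraries. In LK libraries they summed to 75760 to 87054 CPM in WT and 59969 to 78430 CPM in Ripk3-/- cells. Both sums thus differed between the genotypes in LSK cells without overlap, as did the LSK marker sum in LK cells. Within LSK cells, Mecom alone of the LSK markers had a lower mean in Ripk3-/- (48.8 CPM) than in WT cells (56.8). Of the LK markers, only Kit (361 against 229) and Ctsg (273 against 268) had a higher mean in Ripk3-/- LSK cells. Xist was high in all 4 WT libraries (signal 108 to 413) and Uty was at 0 reads there. All 4 Ripk3-/- libraries held 265 to 323 Uty reads and at most 13 Xist reads. Of the other Y-linked genes, Eif2s3y had a mean signal of 78.4 in Ripk3-/- LSK and 49.2 in Ripk3-/- LK cells. Kdm5d had 4.33 and 0.696. Both were at 0 in WT cells, and Ddx3y was at 0 in every group. Genotype and the sex of the mice therefore cannot be told apart in any genotype comparison. The 8 markers of neutrophils, a cell type outside the sort, had a summed level of 598 to 643 CPM in WT LSK and 1975 to 2313 CPM in Ripk3-/- LSK libraries. In LK libraries the sum was 849 to 864 CPM in WT and 1837 to 1849 CPM in Ripk3-/- cells. None of the 8 was at 0 in both libraries of any group. Of the 8, Cxcr2 alone had a lower mean in Ripk3-/- cells, with overlapping genotypes. Its mean was 1.75 CPM in WT and 1.15 in Ripk3-/- LSK cells, and 9.62 in WT and 8.08 in Ripk3-/- LK cells. The part of the differences in sex, sort markers and neutrophil markers in the results below was not tested. In bulk samples, fewer cells of a type and less RNA per cell cannot be told apart.

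To compare the genes with each other, reads were scaled over all 8 libraries together (joint CPM) and divided by the length of the longest coding transcript. On this scale Nfkbia was the highest of the 10 genes in every group. Its level was 1072 ± 58.5 CPM per kb in WT LSK, 1268 ± 19.2 in WT LK, 482 ± 16.3 in Ripk3-/- LSK and 422 ± 54.7 in Ripk3-/- LK cells (SD, n = 2). No other member came near these levels in any library, the next being Tnfaip3 in WT LK cells. In WT LSK cells the next levels were those of Nfkbiz (58.3 ± 2.10) and Tnfaip3 (57.7 ± 1.09), whose libraries overlapped, followed by Rela (51.9 ± 3.32) and Nfkb1 (33.8 ± 4.24). Nfkbib (22.7 ± 6.74) came next, then Nfkbie (14.9 ± 2.90), Relb (11.1 ± 6.39) and Nfkb2 (10.97 ± 3.91), each of which overlapped its neighbour in that order. Rel, which encodes c-Rel, was the lowest there (3.20 ± 1.05). In WT LK cells Tnfaip3 (100 ± 0.695) and Rela (73.0 ± 9.54) followed Nfkbia, Nfkbib (44.2, libraries at 42.8 and 45.6) and Nfkb1 (44.1 ± 2.69) overlapped, and Rel (3.31 ± 1.03) and Relb (3.29 ± 0.354) were lowest and overlapped. In Ripk3-/- LSK cells Rela (52.6 ± 1.95) and Nfkbiz (50.6 ± 2.74) overlapped in the places after Nfkbia, above Tnfaip3 (40.7 ± 3.38). In Ripk3-/- LK cells Tnfaip3 (66.1 ± 10.3) came after Nfkbia, above Nfkb1 (44.1 ± 3.00) and Rela (41.8 ± 10.5), which overlapped.

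**Figure D1:**
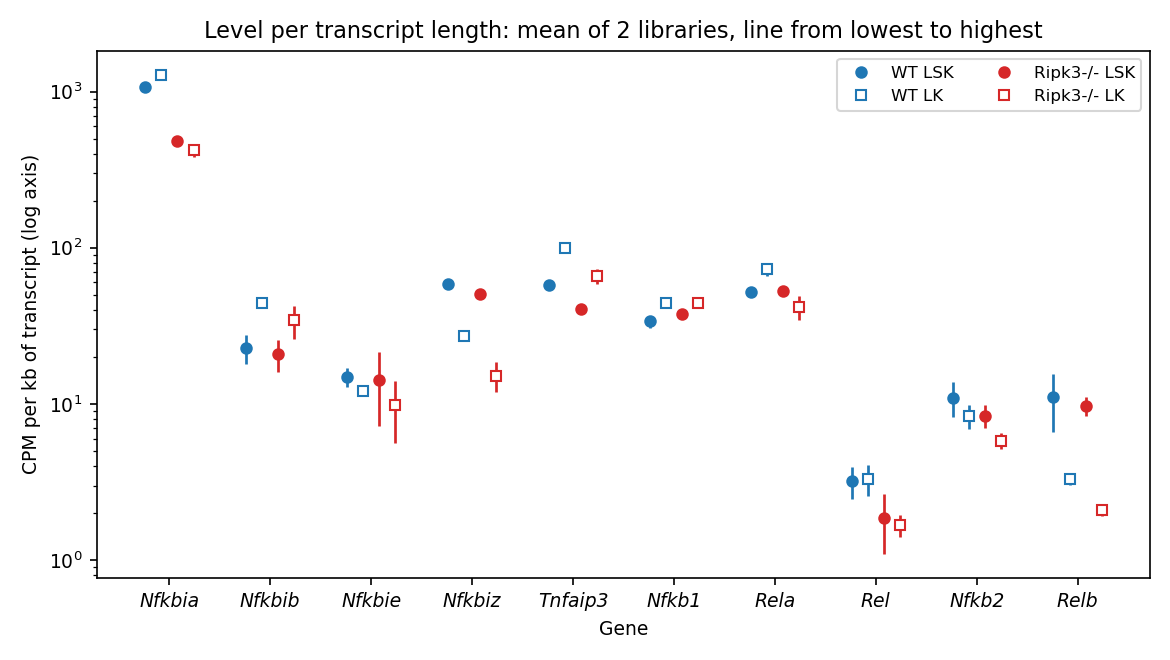
Level of the 10 genes in CPM per kb of the longest coding transcript (log axis), as the mean of 2 libraries with a line from the lowest to the highest. Nfkbia lies between 383 and 1281 CPM per kb in all libraries, above every other gene, and Rel lies at or near the bottom of each group.

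Nfkbia took the largest share of the reads of the 10 genes, a measure that no scaling between libraries can change. It held 62.8% and 65.2% of them in WT LSK, 47.8% and 47.7% in Ripk3-/- LSK, 63.8% and 64.4% in WT LK, and 47.0% and 45.0% in Ripk3-/- LK libraries. The share was higher in each WT library than in each Ripk3-/- library, and differed little between the populations. The 5 subunits together held 13.8% to 14.7% of these reads in the WT libraries and 22.6% to 23.7% in the Ripk3-/- libraries. Shares are parts of a whole, so a larger subunit share does not mean a higher subunit level. No subunit was called between the genotypes in the main fits. All 10 genes together made up 3035 and 3013 CPM (not TMM-scaled) in WT LSK, 1808 and 1790 in Ripk3-/- LSK, 2555 and 2778 in WT LK, and 1220 and 1392 in Ripk3-/- LK libraries. The ratio of Nfkbia reads to those of Nfkb1, the precursor of p50, was 12.8 and 11.6 in WT LSK, 4.89 and 4.87 in Ripk3-/- LSK, 11.4 and 10.7 in WT LK, and 3.50 and 3.82 in Ripk3-/- LK libraries. The ratio of Tnfaip3 to Nfkb1 reads was 1.66 to 2.53 in the WT libraries and 1.06 to 1.70 in the Ripk3-/- libraries, where the genotypes overlapped only across populations. These ratios describe the libraries, and with 2 libraries against 2 an exact two-sided permutation test cannot go below p = 0.333.

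**Figure D2:**
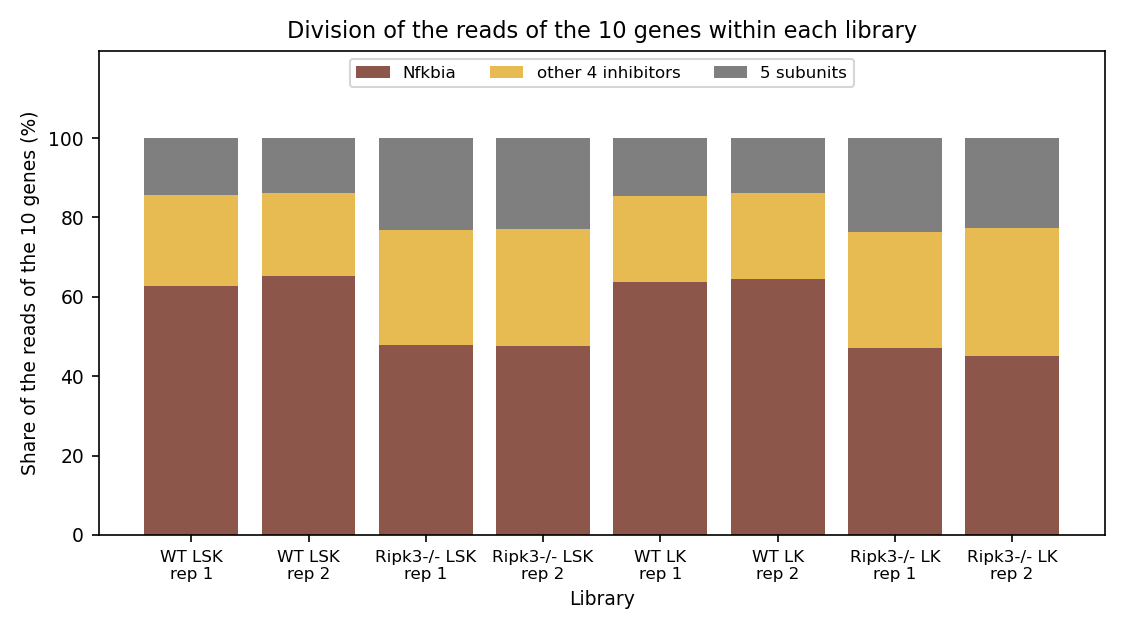
Share (%) of the reads of the 10 genes taken by Nfkbia, by the other 4 inhibitors and by the 5 subunits in each of the 8 libraries. The Nfkbia share is 62.8% to 65.2% in the WT libraries and 45.0% to 47.8% in the Ripk3-/- libraries.

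The genotype comparison in LK cells asks which genes change in myeloid progenitors that lack Ripk3. The 10 genes were proposed with earlier results of these libraries in view, so their genotype values are a description of where they stand among all genes and not an independent test. Nfkbia (GRCm38 chromosome 12, 55489410 to 55492647, minus strand) had a signal of 1736 and 1792 in WT against 532 and 634 in Ripk3-/- LK libraries. Both Ripk3-/- libraries were far below both WT libraries, and the difference exceeded the spread within each group. Nfkbia was downregulated 3.03-fold in Ripk3-/- LK cells, with a log2 fold change on the log2(signal + 1) scale of -1.60 (SE 0.14, limma adjusted p = 7.39e-07), and ranked 4 by p among 13949 genes tested. It was the only member with an adjusted p under 0.05, in 1 of 10 genes, where 0.473% of all genes tested were called.

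The other inhibitors lay lower in Ripk3-/- LK cells by smaller amounts that were not called. Tnfaip3 (A20) had a signal of 386 and 394 in WT against 229 and 283 in Ripk3-/- LK libraries, without overlap, and a log2 fold change of -0.61 (SE 0.17, limma adjusted p = 0.199). Nfkbiz (IκBζ) had 91.6 and 107 in WT against 43.0 and 66.5 in Ripk3-/- libraries, also without overlap, and a log2 fold change of -0.88 (SE 0.22, limma adjusted p = 0.0906). Nfkbib (IκBβ) had 82.5 and 78.2 against 47.5 and 76.1, so that the second Ripk3-/- library lay close to WT. Nfkbie (IκBε) had 26.5 and 25.7 against 12.0 and 29.7, and the genotypes overlapped. Nfkbib shares exon bases with Ccer2 (314) and Sirt2 (42) on the opposite strand in GENCODE M21, and whether the counting used strand is not given in the sources used here, so its reads cannot be assigned with certainty.

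Among the subunits in LK cells, Nfkb1 had nearly equal signals of 152 and 168 in WT against 152 and 166 in Ripk3-/- libraries, with a log2 fold change of -0.01 (SE 0.19). Rela, the transactivating partner of p50, had 190.0 and 160 in WT against 82.2 and 117 in Ripk3-/- libraries, and a log2 fold change of -0.82 (SE 0.21, limma adjusted p = 0.0992). The Rela groups did not overlap, but its Ripk3-/- libraries differed from each other by 0.50 on the log2 scale. Rel had 26.5 and 17.1 against 12.9 and 9.13, a log2 fold change of -0.91 (SE 0.46). Nfkb2, whose exons share 531 bases with AC114539.1 and 299 with Psd on the opposite strand, had 23.2 and 33.4 against 17.3 and 21.9. Relb had the lowest signal, which is not divided by length, with 6.86 and 5.95 against 3.74 and 4.41, or 59 to 101 reads a library. All 10 log2 fold changes in LK cells were below 0, with a median of -0.58 against 0.01 over all genes tested, and in 8 of the 10 genes both Ripk3-/- libraries lay below both WT libraries, where 19.9% of all genes tested did so. The limit of these calls is the spread that is assumed: with a prior variance that does not follow the mean level, the same log2 fold change of Nfkbia had a limma adjusted p of 0.265 and no member was called. Nfkbiz was called without the second Ripk3-/- LK library (log2 fold change -1.18, limma adjusted p = 0.0391) and with median-centred libraries (-0.91, adjusted p = 0.0449), and Rela with the LK libraries alone in the fit (-0.82, adjusted p = 0.0441).

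**Figure D3:**
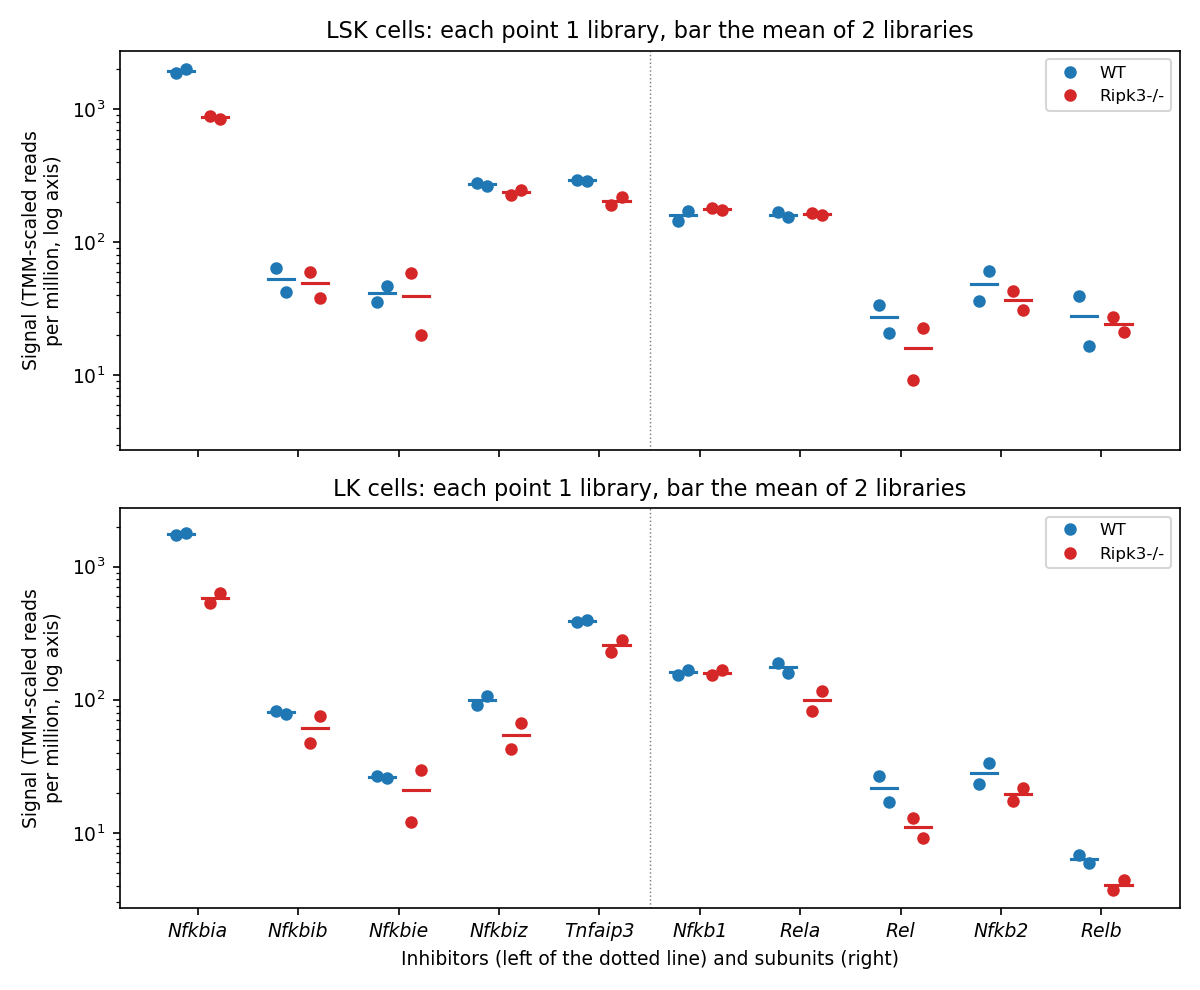
Signal (TMM-scaled CPM, log axis) of the 10 genes in each library of LSK cells (upper panel) and LK cells (lower panel), with a bar at the mean of 2 libraries. Nfkbia is at 1736 to 2001 in the WT and at 532 to 879 in the Ripk3-/- libraries, whereas Nfkb1 is at 144 to 180 throughout. The panels were scaled separately and are not to be read against each other.

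In LSK cells the same comparison asks about HSPCs that lack Ripk3. Nfkbia had a signal of 1852 and 2001 in WT against 879 and 849 in Ripk3-/- LSK libraries. Its replicates lay close together and the genotypes were far apart. It was downregulated 2.23-fold, with a log2 fold change of -1.16 (SE 0.14, limma adjusted p = 4.13e-05), and was again the 1 member of 10 called, where 2.16% of all 16817 genes tested were called. Tnfaip3 had 295 and 287 in WT against 191 and 218 in Ripk3-/- LSK libraries, without overlap, and a log2 fold change of -0.51 (SE 0.17, limma adjusted p = 0.132). Nfkbiz had 280.1 and 266 against 226 and 247, a log2 fold change of -0.21 (SE 0.22). Nfkbia, Tnfaip3 and Nfkbiz were the 3 members in which both Ripk3-/- libraries lay below both WT libraries, where 23.2% of all genes tested did so.

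The subunits gave no call in LSK cells. Rela had 168 and 153 in WT against 166 and 159 in Ripk3-/- LSK libraries, and its log2 fold change of 0.02 (SE 0.21) was below 0 with median-centred libraries (-0.09) and with the RLE factors of edgeR (-0.01). Nfkb1 had 144 and 173 against 179.7 and 174, and was the 1 member with both Ripk3-/- libraries above both WT libraries (a log2 fold change of 0.16, SE 0.19). Rel had 33.6 and 20.9 against 9.24 and 22.6, where the replicates differed by more than the genotypes, and Relb had 39.3 and 16.6 against 27.5 and 21.1. Nfkb2 had 35.9 and 60.2 against 42.6 and 30.8. The inhibitors Nfkbib (64.4 and 42.1 against 60.0 and 37.8) and Nfkbie (35.8 and 47.1 against 58.8 and 20.1) overlapped between genotypes as well. Over the 10 genes 8 log2 fold changes were below 0, with a median of -0.23 against -0.01 over all genes tested. With a prior variance that does not follow the mean level, Nfkbia had a limma adjusted p of 0.0964 in LSK cells and no member was called.

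**Figure D4:**
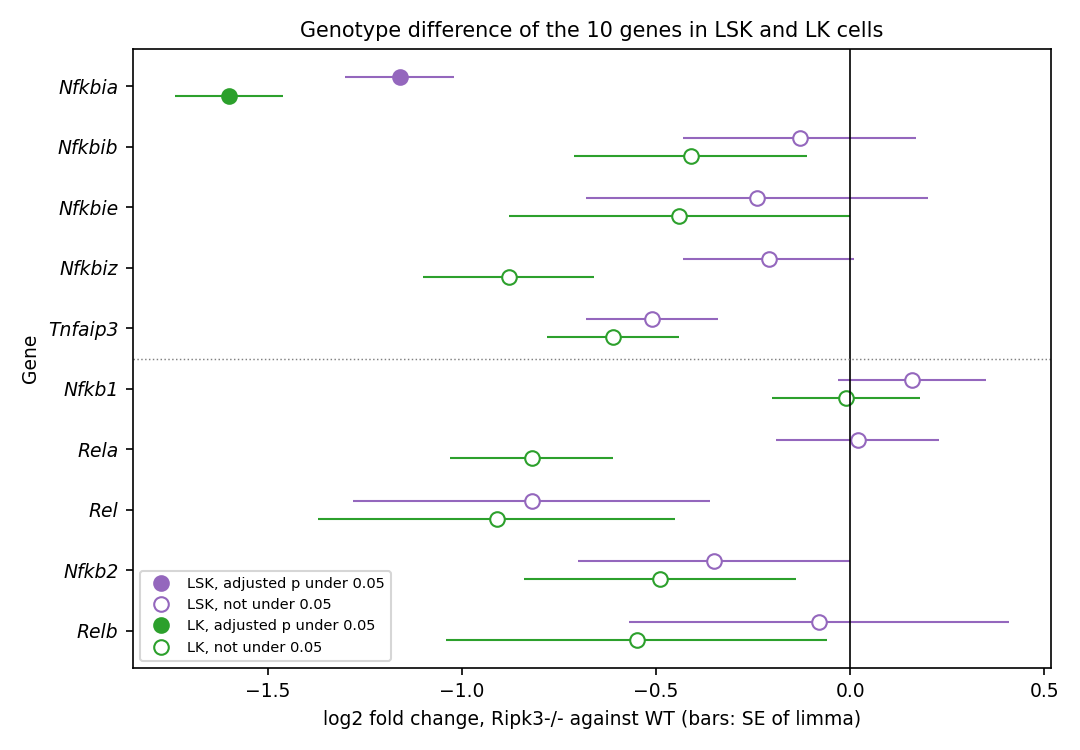
Log2 fold change of Ripk3-/- against WT (horizontal axis, bars are the SE of limma) for the 10 genes in LSK and LK cells, with filled points for an adjusted p under 0.05. Nfkbia is the filled gene in both populations, at -1.16 in LSK and -1.60 in LK cells, and Nfkb1 lies near 0 in both.

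Whether the genotype difference itself differed between the populations was tested as an interaction, in which a value above 0 means a less negative difference in LSK than in LK cells. No member was called, where 0.358% of 15901 genes tested were called by limma, and none was called by the edgeR quasi-likelihood test. At an unadjusted p under 0.05 limma gave 3 of 10 members, where 10.1% of all genes tested passed that threshold, edgeR with TMM factors gave 3, and edgeR with RLE factors and limma with a replicate block each gave 2. Over all 16 alternatives this count ran from 0, reached without the variance trend and without the first Ripk3-/- LK library, to 3. The 3 in limma were Rela (difference 0.84, SE 0.30, limma adjusted p = 0.317), Nfkbia (0.45, SE 0.20, adjusted p = 0.465) and Nfkbiz (0.67, SE 0.31, adjusted p = 0.478). All 10 interaction values were above 0, with a median of 0.24 against 0.00 over all genes tested, of which 7980 were above 0. The 3 values stayed above 0 in all 16 alternatives run, and none of the 3 passed the adjusted threshold in any of them. Each interaction value is the genotype difference in LSK minus that in LK cells, and both were known when the genes were chosen. A set that is low in Ripk3-/- LK cells is pushed above 0 on this measure. The counts and the median of the interaction are therefore a description and not an independent test.

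LSK and LK cells of the same genotype were compared on the joint CPM scale. Nfkbiz (GRCm38 chromosome 16, 55811375 to 55838899, minus strand) was higher in LSK cells of both genotypes. Its level was 246 and 234 CPM in WT LSK against 104 and 121 in WT LK libraries, 2.13-fold higher (log2 fold change 1.09, SE 0.22, limma adjusted p = 0.00108). In Ripk3-/- cells it was 200.2 and 216 CPM in LSK against 48.8 and 76.2 in LK libraries, 3.37-fold higher (log2 fold change 1.75, SE 0.22, limma adjusted p = 4.1e-06). LSK and LK libraries did not overlap in either genotype.

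Relb (chromosome 7, 19606217 to 19629438, minus strand), the noncanonical subunit, was also higher in LSK cells, from a low level. It was 34.5 and 14.5 CPM in WT LSK against 7.82 and 6.72 in WT LK libraries (2.85-fold, log2 fold change 1.51, SE 0.50, limma adjusted p = 0.0306), and 24.4 and 18.5 against 4.25 and 5.05 in Ripk3-/- cells (3.94-fold, log2 fold change 1.98, SE 0.49, limma adjusted p = 0.00566). The WT LSK libraries of Relb differed by 1.20 on the log2 scale of signal. Tnfaip3 (chromosome 10, 19000910 to 19015657, minus strand) went the other way. It was 259 and 252 CPM in WT LSK against 440.3 and 445 in WT LK libraries, 1.73-fold lower (log2 fold change -0.79, SE 0.18, limma adjusted p = 0.00255), and 169 and 191 against 260.0 and 324 in Ripk3-/- cells, 1.61-fold lower (log2 fold change -0.69, SE 0.18, limma adjusted p = 0.00718). Nfkbib was lower in WT LSK cells, with 56.6 and 36.9 against 94.0 and 88.2 CPM (log2 fold change -0.98, SE 0.30, limma adjusted p = 0.0217). In Ripk3-/- cells its log2 fold change of -0.70 (SE 0.30) had an adjusted p of 0.113.

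Nfkbia, whose level differed between the genotypes, was not called between the populations. It had 1626 and 1756 CPM in WT LSK against 1979 and 2022 in WT LK libraries (a log2 fold change of -0.24, SE 0.15, limma adjusted p = 0.229) and 779 and 743 against 604 and 726 in Ripk3-/- cells (0.20, SE 0.15, adjusted p = 0.389). The order of the populations thus ran opposite ways in the genotypes without passing the test in either. Rela likewise had 147 and 134 CPM in WT LSK against 217 and 180.0 in WT LK libraries (a log2 fold change of -0.49, SE 0.21, limma adjusted p = 0.0962) and 147 and 139 against 93.4 and 134 in Ripk3-/- cells (0.35, SE 0.21, adjusted p = 0.273). With median-centred libraries Rela was called in WT cells (-0.60, limma adjusted p = 0.0348), and so was Nfkbib in Ripk3-/- cells (-0.84, adjusted p = 0.0419). Nfkb1, Nfkb2, Rel and Nfkbie had log2 fold changes between -0.39 and 0.50 in both genotypes and were not called. In all, 4 of 10 members were called in WT cells, where 23.9% of 15950 genes tested were called, and 3 of 10 in Ripk3-/- cells, where 20.2% of 15237 were called. The libraries did not overlap in 8 members in each genotype, where 64% of all genes tested did not overlap in WT and 57.5% in Ripk3-/- cells.

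The calls between populations rested on few libraries. In WT cells, Nfkbib was not called without the second WT LSK library (log2 fold change -0.68, limma adjusted p = 0.189), nor without the first or the second WT LK library (adjusted p = 0.147 and 0.0826). Relb was not called without the first WT LSK library (0.91, adjusted p = 0.282) nor without the first or the second WT LK library (adjusted p = 0.113 and 0.124). In Ripk3-/- cells, Tnfaip3 was not called without the first LSK library (-0.61, adjusted p = 0.056) nor without the second LK library (-0.53, adjusted p = 0.153), and Relb was not called without the first LSK library (1.79, adjusted p = 0.0655). Nfkbiz was called without any single library in both genotypes. With a prior variance that does not follow the mean level, no member was called in WT cells (limma adjusted p of Nfkbiz 0.0552, Relb 0.0565, Tnfaip3 0.0794 and Nfkbib 0.123), and Nfkbiz and Relb but not Tnfaip3 (adjusted p = 0.126) were called in Ripk3-/- cells.

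**Figure D5:**
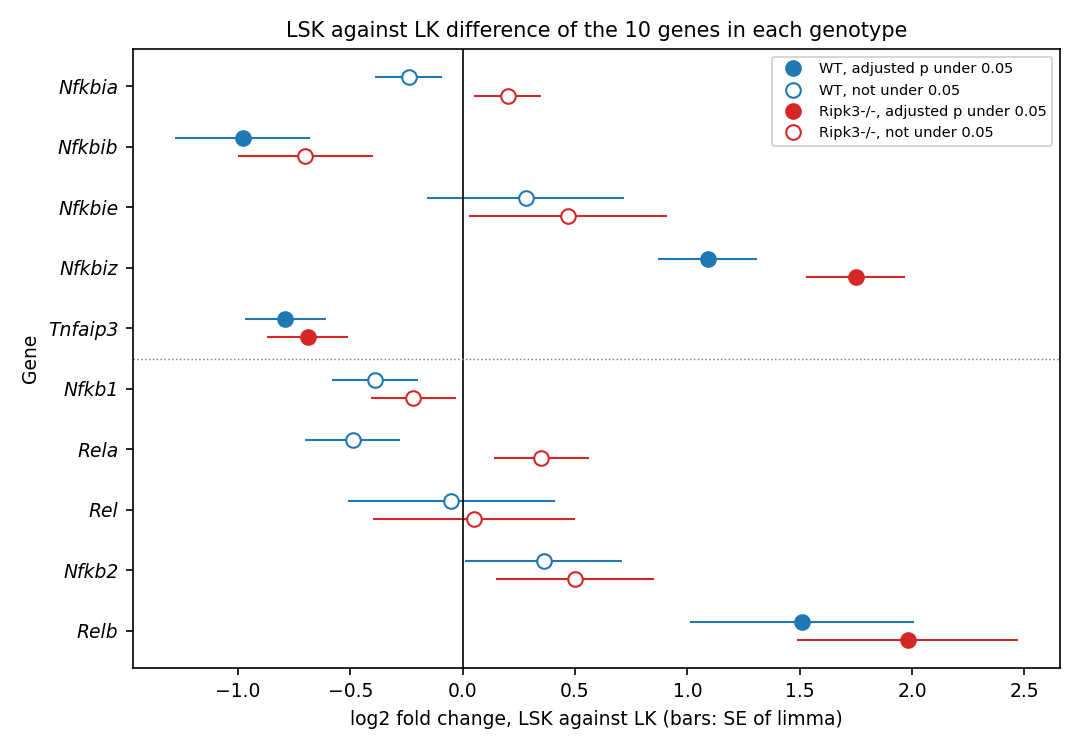
Log2 fold change of LSK against LK cells (horizontal axis, bars are the SE of limma) for the 10 genes in WT and Ripk3-/- mice, with filled points for an adjusted p under 0.05. Nfkbiz (1.09 and 1.75) and Relb (1.51 and 1.98) lie to the right and Tnfaip3 (-0.79 and -0.69) to the left in both genotypes.

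The other genes of the pathway were followed as a list of 65 genes in 4 roles, namely upstream kinases and adaptors, receptors and ligands, other inhibitors and feedback genes, and target genes. Between genotypes in LK cells 57 of them were tested, 0 were higher and 1 was lower (1.75%, where 0.473% of all genes tested were called), with a median log2 fold change of -0.06 against 0.01 over all genes tested. The edgeR quasi-likelihood test called 2. The gene called by limma was Cxcl2, a neutrophil-attracting chemokine and NF-κB target, with a signal of 38.7 and 48.6 in WT against 17.2 and 16.02 in Ripk3-/- LK libraries (a log2 fold change of -1.33, SE 0.29, limma adjusted p = 0.0364). Its adjusted p was over 0.05 without either WT LSK library (0.0523 and 0.0567), without either WT LK library (0.254 and 0.265) and without either Ripk3-/- LK library (0.304 and 0.254). In LSK cells 59 were tested, 0 were higher and 2 were lower (3.39%, near the 2.16% of all genes tested), with a median of 0.06 against -0.01. Gadd45b, a stress-induced NF-κB target, had a signal of 215 and 302 in WT against 86.2 and 109 in Ripk3-/- LSK libraries (a log2 fold change of -1.39, SE 0.26, limma adjusted p = 0.00426). Gadd45b was not called without the second WT LSK library (-1.15, adjusted p = 0.109) nor without the first Ripk3-/- LSK library (-1.22, adjusted p = 0.0889). Tlr2, a receptor for bacterial lipoproteins, had 30.4 and 24.9 against 4.90 and 12.0 (log2 fold change -1.70, SE 0.42, limma adjusted p = 0.0395), a call that 14 of 17 alternatives did not give.

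Between LSK and LK cells the list gave more calls, as did all genes. In WT cells 9 of 58 were higher and 10 were lower in LSK cells, and in Ripk3-/- cells 12 were higher and 7 were lower. These 19 calls in each genotype are 32.8% of the genes tested, beside the 23.9% and 20.2% of all genes. Among the receptors and ligands, Ltb, a TNF family ligand of the noncanonical branch, had log2 fold changes of 3.92 (SE 0.41) in WT and 5.75 (SE 0.40) in Ripk3-/- cells. Its mean level was 82.3 CPM in WT LSK against 4.53 in WT LK cells, and 120 against 1.22 in Ripk3-/- cells. Il1r1, the IL-1 receptor, followed with 2.62 (SE 0.51) and 3.06 (SE 0.51), whereas Tnfrsf1b, the second TNF receptor, was lower in LSK cells (-1.10, SE 0.28, and -1.14, SE 0.28). Tnfrsf1b was not called in WT cells without the second WT LSK library (-0.67, limma adjusted p = 0.137) or the second WT LK library (-0.89, adjusted p = 0.0982), nor in Ripk3-/- cells without the first LSK library (-0.80, adjusted p = 0.108). Il1r1 was called without any single library, at 3.22 without the first and 2.02 without the second WT LK library, and at 2.45 and 3.67 without the first and the second Ripk3-/- LK library.

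Among the other inhibitors, Nfkbid, which encodes a further nuclear IκB protein, was higher in LSK cells (log2 fold change 1.52, SE 0.23, in WT and 1.64, SE 0.23, in Ripk3-/- cells), as was Tnip3, an A20-binding inhibitor (3.22, SE 0.41, and 2.62, SE 0.41). Optn, which binds ubiquitin chains, was lower (-2.32, SE 0.46, and -2.20, SE 0.45), as was Tnfaip2 (-2.31, SE 0.26, and -1.08, SE 0.26). The value of Tnfaip2 in Ripk3-/- cells ran from -1.28 to -0.87 leaving out 1 library. Among the upstream kinases and adaptors, Ripk1 was lower in both genotypes (-1.05, SE 0.24, and -1.02, SE 0.24). Its value ran from -1.31 to -0.79 in WT and from -1.09 to -0.95 in Ripk3-/- cells leaving out 1 library. Traf1 was higher in both genotypes (1.85, SE 0.49, and 1.48, SE 0.48), at 1.64 to 2.07 in WT and 1.15 to 1.81 in Ripk3-/- cells leaving out 1 library. In Ripk3-/- cells Traf1 was not called with the filter dropped (limma adjusted p = 0.0749) or with the 4 libraries of the contrast alone (0.0511). Other calls of this role were made in a single genotype. Target genes higher in LSK cells of both genotypes were Icam1, an adhesion molecule (1.26, SE 0.27, and 1.71, SE 0.27), Ier3 (1.14, SE 0.17, and 1.17, SE 0.17), Cd83 (1.96, SE 0.61, and 1.84, SE 0.61) and Gadd45b (1.49, SE 0.26, and 0.89, SE 0.26). Vcam1, an adhesion molecule as well, was lower (-2.04, SE 0.29, and -2.09, SE 0.29). The adjusted p of limma was under 0.05 for each gene named in this paragraph in both genotypes, and at most 0.0341. With a prior variance that does not follow the mean level, Ripk1 and Optn were not called in either genotype. Tnfaip2 and Gadd45b were then not called in Ripk3-/- cells. Cd83 was not called without any 1 of the 4 libraries compared, in WT (limma adjusted p 0.0633 to 0.144) or in Ripk3-/- cells (0.0585 to 0.234). In Ripk3-/- cells Gadd45b was not called without the second LSK library (0.74, adjusted p = 0.144) or the first LK library (0.53, adjusted p = 0.265). Optn in WT cells was called without any single library, but at -3.41 without the first and -1.23 without the second WT LSK library.

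Genes with a pattern across libraries most like that of Nfkbia were ranked by Pearson correlation of log2(CPM + 1) over the 8 libraries among 15757 genes, as a description. The 5 with the highest r were Hist1h1c (0.971), a linker histone, Xist (0.958), Ftl2 (0.955), Bbc3 (0.947), which encodes the proapoptotic protein PUMA, and Akr7a5 (0.941). The place of Xist, which separates the sexes, shows that the 8 points share the split by genotype and sex. Of the other members, Rela had the highest r with Nfkbia (0.73), followed by Rel (0.69), Tnfaip3 (0.61) and Nfkb2 (0.56), and Nfkb1 had -0.14.

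Immediate-early genes respond to cell handling as well as to signals, and their values are given beside those of Nfkbia. Fos had a signal of 2406 and 2461 in WT against 2320.1 and 2914 in Ripk3-/- LK libraries, and 7129 and 7590.0 against 9510 and 8126 in LSK libraries, with no call in either population. Jun, Egr1, Fosb and Ier2 were not called either. Atf3 was lower in Ripk3-/- cells of both populations, with 205 and 242 against 87.3 and 110 in LK (log2 fold change -1.18, SE 0.19, limma adjusted p = 0.00275) and 528 and 557 against 236 and 185 in LSK libraries (-1.37, SE 0.19, adjusted p = 0.000226). Junb had 845 and 689 against 346 and 493 in LK libraries (a log2 fold change of -0.88, SE 0.17, limma adjusted p = 0.0146), and in LSK cells its log2 fold change of -0.40 (SE 0.17) had an adjusted p of 0.22. The part of cell handling in the Nfkbia difference was not tested.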

How the data were processed

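Total RNA of the sorted cells had been made into libraries with the TruSeq Stranded mRNA kit. The submitters' processing notes name TopHat and mm9; the counter is not given in the sources used here. The authors deposited 1 value per gene and library under the heading FPKM. In every library 100% of the values were whole multiples (within 0.01) of 1 step, so the signal deposited is reads scaled by TMM within the LSK or the LK libraries, with no division by length, and reads were recovered by division. Libraries held 9782166 to 16280811 reads; intervals are not given, and precision rests on 2 libraries a group.

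Signal was tested with limma 3.58.1 (lmFit, eBayes with a trend; R 4.3.3) on log2(signal + 1), in a single fit of 4 group means to the 8 libraries together. The scale understates the change of low genes. Genes with a mean of at least 1 over the libraries of a contrast were tested, and p-values (two-sided) were adjusted over all of them by Benjamini-Hochberg. The design left the unit open, and LSK was compared with LK on CPM scaled by edgeR 4.0.16 (TMM over 8 libraries). Alternatives were 0.1 as the pseudocount, a filter dropped or raised to a mean of 5, no trend, median-centred libraries, recovered reads in the edgeR quasi-likelihood test with TMM or RLE factors, a replicate block, the 4 libraries of a contrast alone, and leaving out each library.

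On simulated LK data limma called 23.9%, 83.6% and 90.9% of genes changed 2-, 4- and 8-fold and 7 of 13597 unchanged genes. On LSK data it called 16.4%, 59.7% and 83.3% and 7 of 16325. The changed genes were drawn only from those with a mean of at least 5, so the rates do not cover lower genes. The members and lists were chosen with earlier results of these data known. Named are all 10 members, pathway genes with an adjusted p under 0.05 in any contrast (examples), Ripk3, the 5 genes most like Nfkbia, and immediate-early and sex genes beside the results they move with. Lengths, overlaps and near copies (BLAST 2.17.0) came from GENCODE M21 on GRCm38, whereas the files used mm9, so no coordinate of the files was used. Promoter windows came from RefSeq.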

Additional observations from a re-analysis of the deposited data

How the results depend on the processing

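Of the single-gene values recomputed under the alternatives, 1286 kept direction and side of the threshold, 141 lost and 5 gained a call, and 21 changed sign; the cause was not tested. The count of members called between genotypes in LK cells (1) was 0 with no trend, 2 with median-centred libraries, 2 with the 4 LK libraries alone, and 1 to 2 leaving out 1 library. In LSK cells (1) it was 0 with no trend and 1 to 1 leaving out 1 library. In LSK against LK of WT (4) it was 2 with no filter, 0 with no trend and 2 to 4 leaving out 1 library; in Ripk3-/- cells (3) it was 1 to 3 leaving out 1 library. The log2 fold change of Nfkbia stayed between -1.73 and -1.47 in LK and between -1.27 and -1.10 in LSK cells.

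Of the pathway list, 1 gene was called in LK cells, 0 with no filter or no trend, 2 with edgeR (TMM or RLE), the replicate block or the LK libraries alone, and 0 to 1 leaving out 1 library. In LSK cells (2) it was 1 with a pseudocount of 0.1, no filter, edgeR (TMM or RLE), the replicate block or the LSK libraries alone, 0 with no trend, 5 with median-centred libraries and 0 to 2 leaving out 1 library. In the interaction (0) it was 1 with edgeR (TMM or RLE; Ltb) and with the replicate block, and 0 to 1 leaving out 1 library. Between populations (19 in each genotype) it was 12 in WT and 10 in Ripk3-/- cells with no trend, and 13 to 20 and 11 to 19 leaving out 1 library.

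Signs changed for low or near-zero values: Rela in LSK (-0.09 median-centred, -0.01 with RLE), and Rel between populations (0.01 with RLE in WT, -0.10 median-centred in Ripk3-/- cells). Leaving out 1 library, ranges that crossed 0 were, between genotypes, Nfkbie -1.06 to 0.18 and Nfkb1 -0.08 to 0.06 in LK, and Nfkbib -0.45 to 0.20, Nfkbie -0.99 to 0.51, Nfkb2 -0.72 to 0.01, Rela -0.05 to 0.08 and Relb -0.68 to 0.51 in LSK; between populations, Rel -0.38 to 0.28 in WT and -0.54 to 0.63 in Ripk3-/-, and Nfkbie -0.28 to 1.23 in Ripk3-/- cells. Median-centring moved the members by -0.11 in LSK, -0.12 and -0.14 (log2) between populations.

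The labels do not say whether libraries with the same replicate number shared mice or a day. Replicate differences of groups with the same numbers correlated at -0.149 (Ripk3-/- LSK with Ripk3-/- LK) to 0.054, which cannot settle it. If LSK and LK cells came from the same mice, the main tests between populations ignored that pairing. The replicate block left 1, 1, 0, 4 and 3 members called in the 5 contrasts; crossing the numbers of the Ripk3-/- groups, an alternative chosen after seeing the data, left 3. Over all genes, calls in LK ran from 3 (no trend) to 125 (LK libraries alone) against 66, and in LSK from 99 to 396 against 363. Depth limits Relb in LK cells (59 to 101 reads).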
